A study of Mus musculus with 98 samples.

Results

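The daily rhythm of the mouse cells that remain in humanized livers was examined in 15 of the 98 libraries of the series, the livers of the Hu arm. Only rows of mouse genes entered, 19689 of the 37418 rows of the liver table, and the counts of these rows alone set the library size. All animals were male FRGN mice, 10 weeks old, which carry Fah-/-, Rag2-/- and Il2rg-/- on a non-obese diabetic (NOD) background. Without Fah, an enzyme of tyrosine breakdown, host hepatocytes die unless the protective drug nitisinone is given, and without Rag2 and Il2rg the mice lack lymphocytes. In the Hu arm the liver had been repopulated with human hepatocytes and in the Mu arm with murine hepatocytes, so that both arms had received transplanted cells and carry the same deletions. Both arms were kept on cycles of nitisinone, on sulfamethoxazole with trimethoprim as prophylaxis, and on dextrose in the drinking water. The Hu livers were sampled at zeitgeber time (ZT) 2, 6 and 18 with 3 libraries each and at ZT 10, 14 and 22 with 2 libraries each. By the usual convention ZT is read here as hours after lights on, since the light cycle is not given in the sources used here. The 12 Mu livers, 2 per time point, are used for comparison. The labels do not say that libraries of a time point came from separate animals, so p-values measure the spread between these libraries.

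In a Hu liver the mouse counts come from all cells that are not human. They include Kupffer cells (the resident macrophages), sinusoidal endothelial cells, stellate cells (which store vitamin A and make collagen), bile duct cells and host hepatocytes that were not replaced. Most mammalian cells hold a circadian clock. In it, BMAL1 (encoded by Arntl) and CLOCK or NPAS2 switch on the Period, Cryptochrome and REV-ERB genes through E-boxes, PER and CRY proteins then block that activity, and REV-ERB and ROR receptors set the timing of Arntl. Proteins of the PAR bZIP family, such as DBP, pass the rhythm on through D-boxes, and in liver the clock is overlaid by signals of feeding, body temperature and glucocorticoids.

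Promoters of 3 of the clock genes that cycled in these mouse cells are shown, because their letters hold motifs of the clock. They are taken from RefSeq on GRCm38.p6 and run from 250 bases before to 50 bases after the start. Capitals mark CACGTG (the E-box), TTATGTAA (a D-box) and AGGTCA (the core read by REV-ERB and ROR receptors), searched on both strands.
Per1, chr11:69098699-69098998, plus strand: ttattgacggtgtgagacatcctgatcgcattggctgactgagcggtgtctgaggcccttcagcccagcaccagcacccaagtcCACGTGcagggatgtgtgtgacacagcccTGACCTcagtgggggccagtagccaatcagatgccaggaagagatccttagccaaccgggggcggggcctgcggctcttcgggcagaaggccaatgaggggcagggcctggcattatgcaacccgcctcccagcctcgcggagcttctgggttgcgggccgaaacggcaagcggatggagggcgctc
Per3, chr4:151044616-151044915, minus strand: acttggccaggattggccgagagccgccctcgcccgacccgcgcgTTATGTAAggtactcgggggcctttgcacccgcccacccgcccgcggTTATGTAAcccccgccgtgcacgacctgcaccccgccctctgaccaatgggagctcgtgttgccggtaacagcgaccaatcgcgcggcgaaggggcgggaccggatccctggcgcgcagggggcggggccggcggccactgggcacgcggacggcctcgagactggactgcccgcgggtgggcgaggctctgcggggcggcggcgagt
Cry1, chr10:85185005-85185304, minus strand: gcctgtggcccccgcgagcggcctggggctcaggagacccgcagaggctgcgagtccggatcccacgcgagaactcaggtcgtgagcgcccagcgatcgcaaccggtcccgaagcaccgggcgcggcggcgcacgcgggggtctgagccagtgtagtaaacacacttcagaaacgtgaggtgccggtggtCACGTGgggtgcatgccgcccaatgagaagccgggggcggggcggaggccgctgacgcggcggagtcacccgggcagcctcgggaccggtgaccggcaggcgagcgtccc
The Per1 window held CACGTG once and AGGTCA once, the latter as TGACCT, the Per3 window held TTATGTAA at 2 positions, and the Cry1 window held CACGTG once. Of 32851 promoter windows of the same length, 7.15% held CACGTG, 0.938% held TTATGTAA, 0.119% held its variant TTACGTAA and 16.3% held AGGTCA. A second Per1 entry and the windows of Nr1d1 and Dbp held none of these 4 motifs, which describes these windows only. Per2 had no entry.

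Mouse counts per Hu liver ranged from 7.70 to 87.9 M (M, mega), with a median of 42.1 M. The human share of counts, the percentage of all liver counts in human rows, ranged from 15.9% to 93.1% (mean 57.7% ± 21.4 SD, n = 15). It was under 70%, the repopulation that the labels give as the minimum for these mice, in 11 of 15 livers. Shares of counts and shares of cells need not be equal. In Mu livers human rows took 0.00592% to 0.0204% of counts. How many human reads were counted in mouse rows of Hu livers was not measured. In CPM, which set each library to one common total and here had no further scaling, Fah was at 6.23 to 35.8 in Hu livers and at 442 to 687 in Mu livers. Alb, the hepatocyte gene for albumin, was at 12029 to 74961 in Hu and at 52149 to 73345 in Mu livers. How much of the Alb counts of Hu livers came from human reads was not tested. Levels below are CPM of mouse counts after TMM scaling within the arm. The ZT 18 replicate 3 library stood apart, with the fewest mouse counts, the highest human share and a summed level of 10 hepatocyte markers of 14956 CPM against 67434 to 153030 in the other 14. The next fewest mouse counts, 10.9 M, were in ZT 22 replicate 2. Mitochondrial transcripts took 1.42% to 5.602% of mouse counts in Hu and 3.75% to 5.56% in Mu livers.

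In the mouse cells of Hu livers, 8 genes cycled: Nr1d1, Dbp, Tsc22d3, Per2, Esco2, Per3, Per1 and Cry1. Of these, 6 belong to the circadian clock or its direct output. A gene was called rhythmic where a 24 h cosine (the cosine and sine terms together) passed edgeR's quasi-likelihood F test with a Benjamini-Hochberg adjusted p under 0.05. These 8 are 0.0576% of 13879 genes tested, and 1322 genes (9.53%) had an unadjusted p under 0.05. Amplitudes below are the log2 distance from the fitted mean to the fitted peak, given with the peak time and their SEs from a cosine fitted to log2 CPM over the 15 livers.

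**Figure D1:**
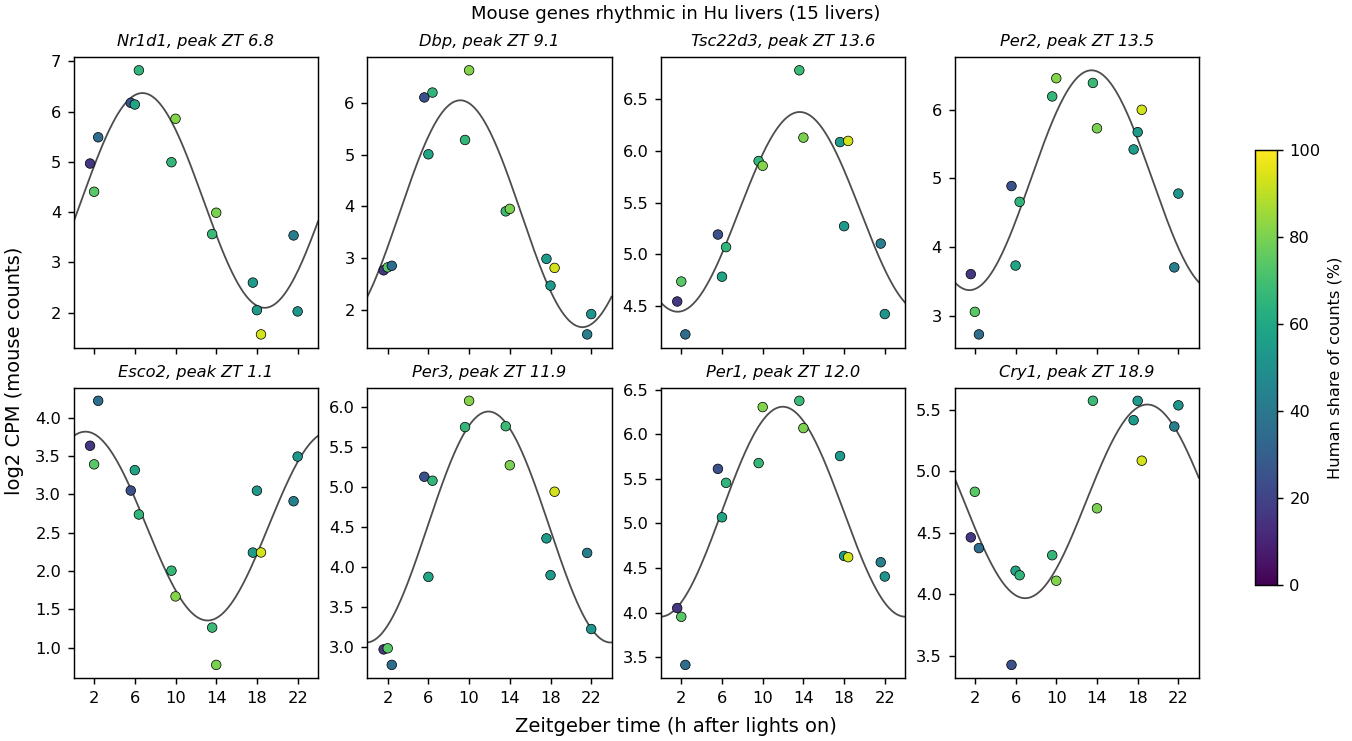
Levels of the 8 rhythmic mouse genes in the 15 Hu livers (vertical axes, log2 CPM of mouse counts) by zeitgeber time (horizontal axes, h after lights on). Points are single livers coloured by their human share of counts, spread slightly sideways for visibility, and lines are the fitted 24 h cosines. Peaks run from Nr1d1 at ZT 6.75 through Dbp and the Period genes to Cry1 at ZT 18.9, and Esco2 peaks at ZT 1.15.

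Nr1d1 encodes REV-ERB alpha, a receptor that represses Arntl, and lies on chromosome 11, 98767932 to 98775333, minus strand (GRCm38). Its CPM were 31.3, 21.2 and 44.9 at ZT 2, 72.3, 70.6 and 113 at ZT 6, 31.8 and 58.02 at ZT 10, 11.8 and 15.8 at ZT 14, 6.01, 4.09 and 2.92 at ZT 18, and 11.6 and 4.02 at ZT 22. Each of the 3 livers at ZT 6 was above every liver of the other times, and all 3 at ZT 18 were below every liver at ZT 2, 6, 10 and 14. The mean was 19.7 times higher at ZT 6 than at ZT 18. The fit gave an amplitude of 2.14 ± 0.18 and a peak at ZT 6.75 ± 0.355 h (edgeR adjusted p = 0.000500).

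Dbp encodes a PAR bZIP activator of clock-controlled genes and lies on chromosome 7, 45705088 to 45710203, plus strand. Its CPM were 6.76, 7.03 and 7.19 at ZT 2, 68.8, 32.1 and 73.4 at ZT 6, 38.9 and 98.9 at ZT 10, 14.9 and 15.4 at ZT 14, 7.89, 5.500 and 6.98 at ZT 18, and 2.84 and 3.74 at ZT 22. The 5 livers at ZT 6 and 10 lay above the other 10, without overlap, and the mean was 20.9 times higher at ZT 10 than at ZT 22. The amplitude was 2.19 ± 0.22 and the peak ZT 9.13 ± 0.365 h (edgeR adjusted p = 0.000907). Exons of Nr1d1 and Dbp overlap exons of Thra and Sphk2 on the other strand. The strand setting of the counting is not given in the sources used here, so some of these reads may belong to the partner gene.

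All 3 Period genes, whose proteins block the activators of the clock, cycled with peaks between ZT 11.9 and ZT 13.5. Per1 (chromosome 11, 69095217 to 69109960, plus strand) had CPM of 16.5, 15.4 and 10.6 at ZT 2, 48.8, 33.5 and 43.8 at ZT 6, 51.1 and 78.97 at ZT 10, 82.9 and 67.1 at ZT 14, 53.97, 24.8 and 24.6 at ZT 18, and 23.6 and 21.1 at ZT 22. Its highest values were in the 2 livers at ZT 14 and in replicate 2 at ZT 10, and the 3 livers at ZT 2 were all below those at ZT 6, 10 and 14. The fit placed the peak at ZT 11.98 ± 0.501 h with an amplitude of 1.18 ± 0.17 (edgeR adjusted p = 0.0325). Per1 and Per3 shared this adjusted p.

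Per2 (chromosome 1, 91415982 to 91459324, minus strand) had CPM of 12.1, 8.26 and 6.56 at ZT 2, 29.6, 13.2 and 25.2 at ZT 6, 73.2 and 88.05 at ZT 10, 83.95 and 53.1 at ZT 14, 42.8, 51.1 and 64.00 at ZT 18, and 12.97 and 27.4 at ZT 22. The 4 livers at ZT 10 and 14 and the 3 at ZT 18 were all above the 8 livers of the other times. Its amplitude of 1.60 ± 0.20 was the largest of the Period genes, and it peaked at ZT 13.5 ± 0.452 h (edgeR adjusted p = 0.0111). For Per3 (chromosome 4, 151003652 to 151044665, minus strand), whose window above holds 2 D-boxes, CPM were 7.75, 7.83 and 6.77 at ZT 2, 34.8, 14.6 and 33.7 at ZT 6, 53.6 and 67.4 at ZT 10, 54.04 and 38.5 at ZT 14, 20.4, 14.8 and 30.6 at ZT 18, and 17.97 and 9.26 at ZT 22. The 4 livers at ZT 10 and 14 were above all others, and the 3 at ZT 2 below all others. The amplitude was 1.45 ± 0.20 with a peak at ZT 11.9 ± 0.480 h (edgeR adjusted p = 0.0325).

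Cry1 encodes a cryptochrome, the partner of the PER proteins, and lies on chromosome 10, 85131700 to 85185064, minus strand. Its CPM were 22.01, 28.5 and 20.7 at ZT 2, 10.7, 18.2 and 17.8 at ZT 6, 19.9 and 17.2 at ZT 10, 47.6 and 25.9 at ZT 14, 42.7, 47.6 and 33.9 at ZT 18, and 41.2 and 46.4 at ZT 22. The 5 livers at ZT 18 and 22 lay above those at ZT 2, 6 and 10, while replicate 1 at ZT 14 was as high as the highest of them. Counted from lights on, this was the latest peak of the 8 genes, ZT 18.9 ± 0.589 h, with the smallest amplitude, 0.79 ± 0.11 (edgeR adjusted p = 0.0342).

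The other 2 genes lie outside the clock. Tsc22d3 encodes GILZ, a leucine zipper protein induced by glucocorticoids, and lies on chromosome X, 140539528 to 140600659, minus strand. Its CPM were 23.3, 26.6 and 18.7 at ZT 2, 36.5, 27.5 and 33.6 at ZT 6, 59.7 and 57.9 at ZT 10, 109.6 and 69.9 at ZT 14, 67.8, 38.6 and 68.3 at ZT 18, and 34.4 and 21.4 at ZT 22. Values were highest at ZT 14 and lowest at ZT 2, where all 3 livers were below those at ZT 6, 10, 14 and 18. It peaked at ZT 13.6 ± 0.449 h with an amplitude of 0.96 ± 0.12 (edgeR adjusted p = 0.00568). Esco2 encodes an acetyltransferase that joins sister chromatids during DNA replication and lies on chromosome 14, 65819038 to 65833994, minus strand. Its CPM were 12.4, 10.5 and 18.6 at ZT 2, 8.24, 9.92 and 6.62 at ZT 6, 3.96 and 3.13 at ZT 10, 2.35 and 1.66 at ZT 14, 4.68, 8.23 and 4.68 at ZT 18, and 7.48 and 11.2 at ZT 22. The 2 livers at ZT 14 were below every other liver. The mean at ZT 2 was 6.89 times that at ZT 14, the amplitude 1.23 ± 0.15 and the peak ZT 1.15 ± 0.450 h (edgeR adjusted p = 0.0233). Of 10 cell division genes, such as Mki67 and Cdk1, 0 were called and 1, Ccnb1, had an unadjusted p under 0.05 (edgeR), beside 9.53% of all genes.

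Nr1d1, Dbp, Tsc22d3 and Per2 stayed under an adjusted p of 0.05 in edgeR when any 1 of the 15 libraries was left out, with adjusted p-values up to 0.0476. Esco2 stayed so in 7, Per1 and Per3 in 5 and Cry1 in 3 of the 15 fits, with adjusted p-values up to 0.101, 0.136, 0.136 and 0.110. All 4 of these calls were lost without ZT 2 replicate 1 or 3, ZT 10 replicate 2, ZT 14 replicate 2 or ZT 22 replicate 2. With all of a time point left out, the count was 1 without ZT 6, 2 without ZT 2 or ZT 10, 4 without ZT 14, and 6 without ZT 18 or ZT 22. Genes just outside the threshold were AA986860 (adjusted p = 0.0618) and Tspan4, Chd7 and Il1b (each 0.0695).

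The other 13 clock genes did not pass the threshold without the share. In 4 lists of 19 clock genes, all of them tested, 6 were called and 15 had an unadjusted p under 0.05. Over all genes tested these shares were 0.0576% and 9.53%. The activators had their fitted peaks between ZT 22.7 and ZT 23.1. Arntl CPM were 28.4, 34.8 and 30.4 at ZT 2, 10.7, 21.2 and 15.04 at ZT 6, 7.08 and 2.93 at ZT 10, 12.2 and 16.3 at ZT 14, 31.6, 24.02 and 15.3 at ZT 18, and 34.5 and 27.3 at ZT 22, with a peak at ZT 22.7 ± 0.628 h, an amplitude of 1.21 ± 0.22 and an adjusted p of 0.199. All 4 livers at ZT 10 and 14 were below the 3 at ZT 2 and the 2 at ZT 22. Npas2 CPM were 9.83, 13.1 and 12.7 at ZT 2, 1.84, 4.19 and 2.73 at ZT 6, 2.83 and 0.602 at ZT 10, 1.98 and 3.81 at ZT 14, 8.97, 6.91 and 4.95 at ZT 18, and 6.67 and 11.5 at ZT 22, with a peak at ZT 22.7 ± 0.593 h and an adjusted p of 0.129. Clock, whose protein pairs with BMAL1 as NPAS2 does, had an amplitude of 0.24 ± 0.06 (adjusted p = 0.465).

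Among the other repressors and output factors, fitted peaks fell between ZT 10.1 and ZT 12.1 for Bhlhe41, Ciart, Tef and Bhlhe40. Their adjusted p-values were 0.458, 0.330, 0.326 and 0.366 (edgeR). Nfil3, which competes with the PAR bZIP proteins for D-boxes, had its fitted peak at ZT 22.3 ± 1.56 h, against ZT 9.13 for Dbp (adjusted p = 0.538). With the human share as a covariate, the fitted peak of Nfil3 was ZT 18.3 ± 1.78 h (edgeR adjusted p = 0.504) and that of Dbp ZT 9.07. Rora and Cry2 had the smallest amplitudes of the 19, 0.07 ± 0.15 and 0.08 ± 0.18, with SEs of the peak above 8 h, so their times cannot be read.

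The human share was not spread evenly over the time points, although its 24 h cosine did not pass 0.05. Its mean was 41.7% at ZT 2 (15.9%, 73.9% and 35.3%), 49.6% at ZT 6 (24.96%, 58.7% and 65.3%) and 73.8% at ZT 10 (66.3% and 81.3%). It was 73.8% at ZT 14 (67.9% and 79.8%), 67.0% at ZT 18 (54.3%, 53.7% and 93.1%) and 47.6% at ZT 22 (42.7% and 52.5%). A 24 h cosine of the share had an amplitude of 18.2 ± 6.83 percentage points and a peak at ZT 13.6 ± 1.39 h, with an R² of 0.375 (2-sided permutation test, p = 0.0620, 100000 draws, n = 15). Without ZT 2 replicate 2 the R² was 0.566 (permutation p = 0.0103), and without ZT 2 replicate 1 it was 0.285 (permutation p = 0.162). Of 13879 mouse genes, 5792 (41.7%) had a slope on the share past an edgeR adjusted p of 0.05 in a fit with the cosine.

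Many marker genes of the mouse cell types had a slope on the share. Slopes of lists are log2 change of the summed CPM per 10 percentage points of human share, from a line fitted without the cosine. Called slopes are those of single genes in the edgeR fit with the cosine. The 10 stellate cell markers (such as Dcn and Col1a1) had a sum of 907 to 8118 CPM and a slope of 0.37, and 10 of 10 had a called slope. For 10 sinusoidal endothelial markers (such as Stab2 and Clec4g) the sum was 580 to 3455, the slope 0.29, and 9 of 10 were called, and for 10 Kupffer cell and macrophage markers (such as Clec4f and C1qa) the sum was 910 to 4114, the slope 0.21, and 7 of 10 were called. The hepatocyte sum had a slope of -0.22, with 2 of 10 called, and it was lowest in ZT 18 replicate 3. Without that library its slope was -0.071, and those of the stellate, endothelial and Kupffer cell sums were 0.33, 0.24 and 0.15. In bulk tissue, fewer cells of a type and less RNA per cell cannot be told apart. Neutrophil markers summed to 7.16 to 84.2 CPM, lymphocyte markers to 0.694 to 19.7, and pancreas and skeletal muscle markers to at most 1.42 and 0.612.

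**Figure D2:**
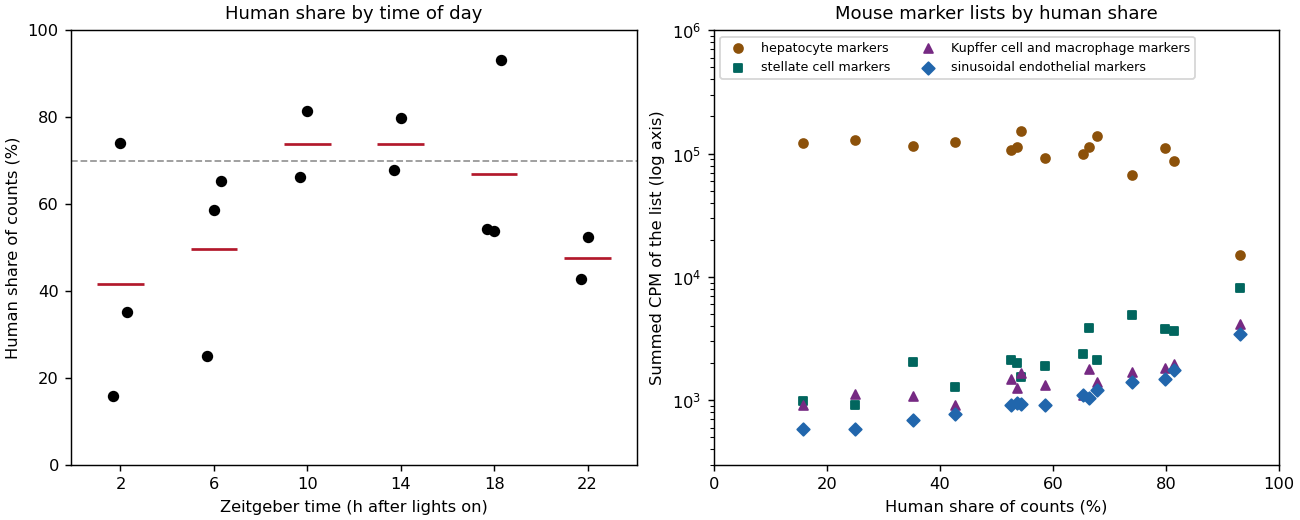
Left, human share of counts (vertical axis, %) in each of the 15 Hu livers by zeitgeber time (h), with bars at the means and a dashed line at 70%. Right, summed CPM (log axis) of 4 lists of mouse marker genes by human share (%), 1 point per liver and list: the non-hepatocyte sums are highest and the hepatocyte sum lowest in the liver at 93.1%.

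None of the marker genes was called rhythmic by edgeR in either fit. Without the share, 5 of 10 Kupffer cell markers and 2 of 10 endothelial markers had an unadjusted p under 0.05, beside 9.53% of all genes. With the share in the fit, 0 of 10 in either list had one, beside 7.93% of all genes. Fitted peaks of these 7 genes lay between ZT 13.7 (Cd68) and ZT 16.01 (Vsig4), near that of the share. Of the 5 neutrophil markers tested, 2 had such a p without and 0 with the share, and the neutrophil sum had its fitted peak at ZT 22.7 ± 2.39 h. Of 10 stellate markers, 0 had one without and 1 with the share. Their part in the rhythms of other genes was not tested.

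With the human share as a covariate, 13 genes cycled, 0.0937% of 13879 tested, and 1100 genes (7.93%) had an unadjusted p under 0.05 (edgeR). Nr1d1, Dbp, Tsc22d3 and Cry1 were called again, with adjusted p-values of 0.000696, 0.00197, 0.0399 and 0.0399. Both fits use the same 15 livers, so the second is no independent evidence. The other 9 included the clock gene Nr1d2, and Asap2, Ngfr, Rab11fip5, Heyl, Idh2, Gm14327 and Efnb1. Per1 (adjusted p = 0.0545), Per2 (0.0751), Per3 and Esco2 (each 0.120) lay outside the threshold in this fit, with amplitudes of 1.28, 1.63, 1.42 and 1.12 beside 1.18, 1.60, 1.45 and 1.23 without the share.

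**Figure D3:**
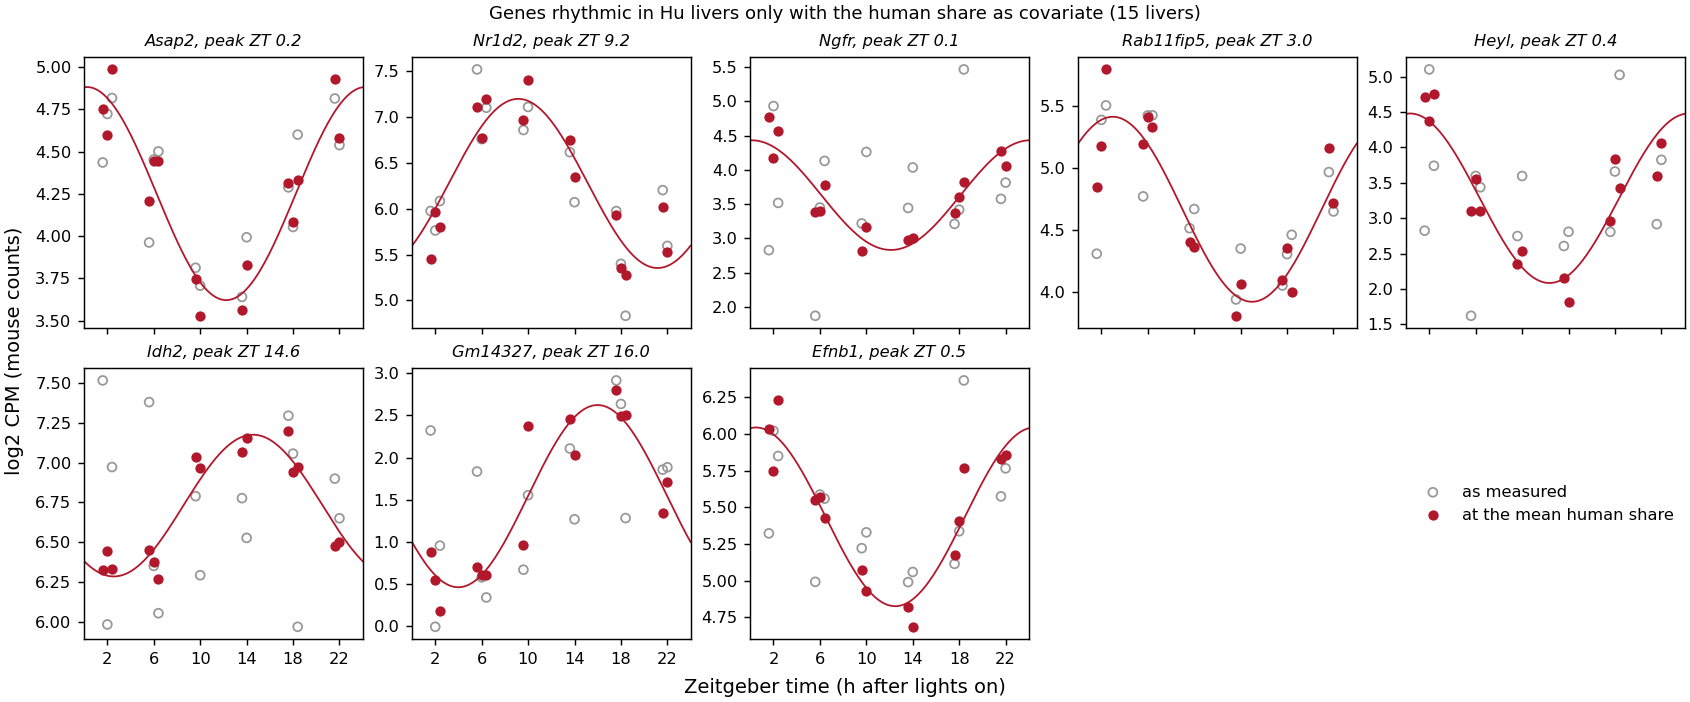
Shown are 8 of the 9 mouse genes called rhythmic with the human share as covariate and not without it, in the 15 Hu livers (vertical axes, log2 CPM of mouse counts) by zeitgeber time (h after lights on). Open circles are measured values, filled circles the values moved along the fitted slope to the mean human share, and lines the fitted cosines. In Heyl, Ngfr and Idh2 the open circles scatter widely at single times, and the filled ones lie close to the line.

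Nr1d2 is the second REV-ERB gene. Its CPM were 62.8, 54.2 and 67.8 at ZT 2, 183, 108 and 137 at ZT 6, 116 and 138 at ZT 10, 97.99 and 67.1 at ZT 14, 62.8, 42.1 and 28.5 at ZT 18, and 73.6 and 48.3 at ZT 22. The 5 livers at ZT 6 and 10 lay above the other 10. With the share, the fitted peak was ZT 9.16 ± 0.657 h, the amplitude 0.92 ± 0.14 and the adjusted p 0.0399, against 0.118 without.

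Ngfr and Heyl had the steepest rises with the share among the 13 genes, with slopes of 0.46 and 0.44 log2 per 10 points. Ngfr encodes the low-affinity neurotrophin receptor and Heyl a repressor induced by Notch signalling. Ngfr CPM were 7.06, 30.5 and 11.4 at ZT 2, 3.61, 10.9 and 17.5 at ZT 6, 9.27 and 19.2 at ZT 10, 10.8 and 16.4 at ZT 14, 9.22, 10.7 and 44.2 at ZT 18, and 11.9 and 14.03 at ZT 22, and the 2 highest values were in the livers with 93.1% and 73.9% human counts. Heyl CPM were 7.03, 34.3 and 13.3 at ZT 2, 3.03, 12.1 and 10.8 at ZT 6, 6.67 and 12.04 at ZT 10, 6.04 and 6.95 at ZT 14, 6.95, 12.6 and 32.5 at ZT 18, and 7.49 and 14.1 at ZT 22, with the same 2 livers highest. At the mean share, both had fitted peaks in the first hour after lights on, Ngfr at ZT 0.121 ± 0.426 h and Heyl at ZT 0.354 ± 0.456 h, with amplitudes of 0.80 and 1.20. Without the share their adjusted p-values were 0.810 and 0.646 (edgeR).

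Efnb1, which encodes the ligand ephrin B1, had a slope of 0.17 and ranged from 31.7 to 82.4 CPM, with its fitted peak at ZT 0.487 ± 0.432 h (edgeR adjusted p = 0.0433). Asap2, a GTPase-activating protein for Arf proteins, ranged from 12.4 to 28.2 CPM and peaked at ZT 0.241 ± 0.371 h. The 4 livers at ZT 10 and 14 held 4 of its 5 lowest values. Its exons overlap those of Itgb1bp1 and Gm20535 on the other strand. Rab11fip5, a vesicle transport protein, ranged from 15.3 to 45.3 CPM and peaked at ZT 2.98 ± 0.539 h. With Ngfr and Heyl, 5 of the 9 genes thus had fitted peaks between ZT 0.121 and ZT 2.98. All 5 had positive slopes on the share, down to 0.12 for Rab11fip5 and 0.077 for Asap2. Slopes were negative for Idh2, Gm14327 and Nr1d2, with fitted peaks at ZT 14.6, 15.99 and 9.16. The share had its own fitted peak at ZT 13.6. How far the cosine of the share shaped the fitted rhythms of these genes was not tested.

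Idh2, the mitochondrial NADP-dependent isocitrate dehydrogenase, had CPM of 183, 63.2 and 125 at ZT 2, 166, 81.6 and 66.4 at ZT 6, 111 and 78.3 at ZT 10, 109.6 and 92.2 at ZT 14, 157, 133 and 62.6 at ZT 18, and 119 and 100.4 at ZT 22. The lowest value at ZT 2 and at ZT 18 was in each case in the liver with the most human counts, and the slope was -0.28. At the mean share it peaked at ZT 14.6 ± 0.391 h with an amplitude of 0.44 ± 0.05 (adjusted p = 0.0399). Without the share the amplitude was 0.14 ± 0.21 (adjusted p = 0.876). Gm14327, a predicted gene at 0.948 to 7.50 CPM, had a slope of -0.35 and peaked at ZT 15.99 ± 0.579 h (adjusted p = 0.0399).

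Only Nr1d1 and Dbp of these 13 stayed under an edgeR adjusted p of 0.05 without any 1 of the 15 libraries. Each of the other 11 did so in 0 to 2 of the 15 fits, Idh2 in 0, and the count of genes fell to between 2 and 9. Without ZT 18 replicate 3, the liver at 93.1%, 7 genes were called, and Nr1d1, Dbp, Cry1 and Efnb1 were among them.

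Over all genes, fitted peaks clustered between ZT 0 and 6 and between ZT 12 and 18. Of the 13879 genes tested, 40.3% had their fitted peak between ZT 0 and 6 and 34.4% between ZT 12 and 18. A further 12.9% had it between ZT 6 and 12 and 12.4% between ZT 18 and 24. Of the 1322 genes with an unadjusted p under 0.05, 606 (45.8%) had their fitted peak between ZT 0 and 6 and 584 (44.2%) between ZT 12 and 18. In 62 (4.7%) it lay between ZT 6 and 12 and in 70 (5.3%) between ZT 18 and 24. With the share in the fit, these counts were 413, 480, 91 and 116 of 1100. Of the 8 called genes, 4 had it between ZT 6 and 12, among them Per1 and Per3, which lie within 1 SE of the edge at ZT 12. The fitted peak of the human share, ZT 13.6, lay within the second of the crowded windows.

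In Mu livers fitted alone, 3928 of 13577 genes tested (28.9%) were rhythmic by the same test. Of 3882 that were also tested in Hu livers, 468 (12.1%) had an unadjusted p under 0.05 there and 8 (0.206%) were called. Over all 13879 genes tested in Hu livers these shares were 9.53% and 0.0576%. All 8 genes called in Hu livers without the share were rhythmic in Mu livers, and 11 of the 13 called with it, the exceptions being Rab11fip5 (adjusted p = 0.114) and Idh2 (0.801). Hu livers scattered more about the fitted cosine than Mu livers. Over 13318 genes the median residual SD was 0.33 log2 CPM in Hu and 0.23 in Mu livers, and it was larger in Hu for 72.4% of genes. With the share in the fit it was 0.27 in Hu. Median amplitudes were 0.18 in Hu and 0.25 in Mu livers.

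**Figure D4:**
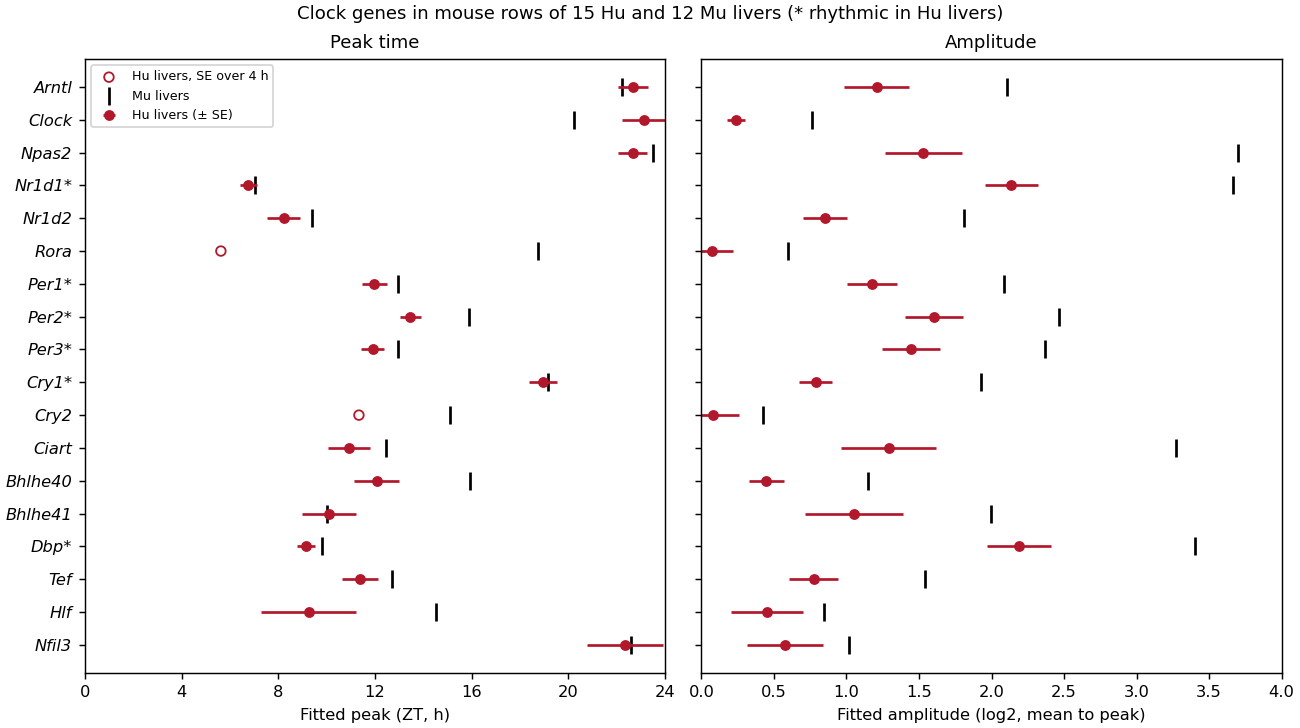
Fitted peak time (left, ZT in h) and amplitude (right, log2 from mean to peak) of 18 of the 19 mouse clock genes in 15 Hu livers (red points, bars of 1 SE) and 12 Mu livers (black ticks). Open circles mark peaks in Hu livers with an SE over 4 h, and asterisks the 6 genes called rhythmic in Hu livers. All 18 red points in the right panel lie left of the tick.

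Mouse rows of Mu livers include the transplanted murine hepatocytes, which Hu livers did not receive, so the arms compare different mixes of mouse cells. How far this mix shaped the differences below was not tested. The amplitude of each of the 19 clock genes was smaller in the mouse rows of Hu than of Mu livers, with a median ratio of 0.519, and all 19 were rhythmic in Mu livers. Over the 3882 genes rhythmic in Mu livers and tested in both arms, the amplitude was smaller in Hu for 87.8%, with a median ratio of 0.432. These genes were chosen by their rhythm in Mu livers. Over all 13318 genes tested in both arms, the amplitude was smaller in Hu for 61.2%, with a median ratio of 0.756. Fitted peaks were earlier in Hu for 14 of the 17 clock genes whose peak in Hu livers had an SE under 4 h, with a median difference of -0.985 h (Hu minus Mu). Over 2981 genes rhythmic in Mu livers with such an SE it was earlier for 59.5%, with a median difference of -1.46 h. The difference in rhythm between arms was tested itself, by the arm-by-cosine terms of a joint edgeR fit of 27 livers. Its p-values rest on a spread shared by both arms, although the residual SD was larger in Hu for 72.4% of genes. Across all genes 192 of 14977 (1.28%) passed an adjusted p of 0.05 and 3146 had an unadjusted p under 0.05. Of the 19 clock genes, 6 passed: Cry1 (adjusted p = 0.00622), Per2 (0.0180), Nr1d2 (0.0217), Nr1d1 (0.0240), Npas2 (0.0445) and Bhlhe40 (0.0449). This test does not separate amplitude from time of peak.

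Nr1d1 had a Mu amplitude of 3.67 ± 0.24, with a peak at ZT 7.03 ± 0.253 h, near its time in Hu livers. In Mu livers its CPM, scaled within that arm alone, were 42.8 and 57.4 at ZT 2, 161 and 177 at ZT 6, 75.3 and 119 at ZT 10, 6.49 and 14.8 at ZT 14, 2.27 and 1.36 at ZT 18, and 1.84 and 1.71 at ZT 22. Mu values spanned 1.36 to 177 and Hu values 2.92 to 113, with the highest at ZT 6 and the lowest at ZT 18 in both arms. For Per2, CPM in Mu livers were 4.88 and 7.36 at ZT 2, 13.6 and 7.73 at ZT 6, 37.7 and 59.03 at ZT 10, 169 and 149 at ZT 14, 124 and 168 at ZT 18, and 66.6 and 44.7 at ZT 22, with a peak at ZT 15.9 ± 0.330 h, against ZT 13.5 ± 0.452 h in Hu livers. The 4 highest Mu values were those at ZT 14 and 18, while 3 of the 4 highest Hu values were at ZT 10 and 14 and the next at ZT 18. Cry1 peaked at ZT 19.1 ± 0.257 h in Mu livers with an amplitude of 1.93 ± 0.13, against ZT 18.9 ± 0.589 h and 0.79 ± 0.11 in Hu livers. Dbp had amplitudes of 2.19 ± 0.22 in Hu and 3.40 ± 0.47 in Mu livers, and the difference did not pass (adjusted p = 0.225).

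Among the 8 genes called without the share, Tsc22d3 had the most equal amplitudes, 0.96 ± 0.12 in Hu and 1.02 ± 0.12 in Mu livers, with peaks at ZT 13.6 ± 0.449 h and ZT 16.6 ± 0.466 h. Its rhythms differed between the arms with an adjusted p of 0.0498, just inside the threshold. Esco2 had a peak at ZT 5.05 ± 1.23 h and 0.468 to 3.26 CPM in Mu livers, against 1.66 to 18.6 in Hu livers, each arm scaled on its own (adjusted p of a different rhythm = 0.0851).

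Further genes known to follow the liver clock did not pass the test for a 24 h rhythm in the mouse cells of Hu livers. Of 13, 0 were called by edgeR in either fit, and all 13 were rhythmic in Mu livers. An unadjusted p under 0.05 was found in 3 without the share and in 4 with it, beside 9.53% and 7.93% of all genes. For 6 of them the rhythm differed between arms: Ppard (adjusted p = 0.000732), Por (0.0132), Wee1 (0.0186), Alas1 (0.0212), Lonrf3 (0.0228) and Usp2 (0.0243). Ppard encodes a fatty acid receptor, and its CPM were 28.1, 37.2 and 27.8 at ZT 2, 16.3, 28.7 and 27.5 at ZT 6, 23.8 and 25.2 at ZT 10, 25.7 and 28.6 at ZT 14, 24.4, 30.9 and 39.1 at ZT 18, and 27.9 and 37.3 at ZT 22 in Hu livers. In Mu livers they were 56.6 and 61.6 at ZT 2, 9.01 and 12.5 at ZT 6, 9.91 and 11.2 at ZT 10, 27.5 and 16.05 at ZT 14, 63.98 and 63.1 at ZT 18, and 80.8 and 83.1 at ZT 22. The 12 Mu values spanned 9.01 to 83.1 CPM and the 15 Hu values 16.3 to 39.1, and the amplitudes were 1.69 ± 0.15 and 0.25 ± 0.10. With the share in the fit, the amplitude in Hu livers was 0.39 ± 0.07 and the peak ZT 23.2 ± 0.595 h, against ZT 21.1 ± 1.51 h without it (edgeR unadjusted p = 0.000514, adjusted p = 0.200 with the share).

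Alas1 encodes the rate-limiting enzyme of heme synthesis in liver. Its CPM in Hu livers were 369, 263 and 392 at ZT 2, 256, 333 and 287 at ZT 6, 76.7 and 284 at ZT 10, 367 and 158 at ZT 14, 293, 345 and 64.8 at ZT 18, and 348 and 354 at ZT 22. In Mu livers they were 46.2 and 58.9 at ZT 2, 112 and 91.1 at ZT 6, 544 and 199.8 at ZT 10, 357 and 447 at ZT 14, 192 and 319 at ZT 18, and 126 and 111 at ZT 22, with a peak at ZT 13.9 ± 0.501 h. At ZT 2 the 3 Hu livers were at 263 to 392 CPM and the 2 Mu livers at 46.2 and 58.9, each arm scaled on its own. The lowest Hu values were in ZT 18 replicate 3 and ZT 10 replicate 1, and the cosine in Hu livers had an adjusted p of 0.710. Por, the reductase that supplies electrons to cytochrome P450 enzymes, had amplitudes of 0.19 ± 0.17 in Hu and 1.27 ± 0.14 in Mu livers, Wee1, a kinase that holds back mitosis, 0.17 ± 0.10 and 1.501 ± 0.23, and Usp2, a ubiquitin protease, 0.69 ± 0.19 and 2.90 ± 0.42.

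Genes of 12 other lists, which cover feeding, sterols, bile acids, drug metabolism, glucocorticoids, temperature, stress, cell division and immunity, held 135 members, of which 133 were tested. Of these, 1 was called in each fit, Tsc22d3. At an unadjusted p under 0.05 there were 22 without and 31 with the share, and 62 were rhythmic in Mu livers. Over all genes tested, 9.53% and 7.93% had such a p in Hu livers, and 28.9% were rhythmic in Mu livers. The 133 list genes had a median amplitude of 0.36 beside a median residual SD of 0.67, against 0.19 and 0.35 over all genes tested. Except for Tsc22d3, genes of these lists named below were chosen after their values were seen, and none passed an adjusted p of 0.05.

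Over all genes, 9.53% had an unadjusted p under 0.05 without and 7.93% with the share (edgeR). Of 14 genes of sterol synthesis and uptake, 1 had such a p without the share and 7 with it. They included Insig1, Lss, Fdps, Mvd and Srebf2, with fitted peaks from ZT 14.9 to ZT 16.8 in that fit. Srebf2, which encodes an activator of sterol synthesis genes, had an amplitude of 0.29 ± 0.09 and an adjusted p of 0.496 (edgeR). In the fed-state list of 11 lipid synthesis genes, Thrsp and Pnpla3 had such a p in both fits and Acly with the share only. Thrsp, a gene of fatty acid synthesis, had a fitted peak at ZT 14.4 ± 1.01 h with the share, against ZT 15.8 ± 0.664 h in Mu livers (edgeR adjusted p of a different rhythm = 0.806).

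Glucocorticoid-responsive genes other than Tsc22d3 with an unadjusted p under 0.05 had fitted peaks between ZT 11.97 and ZT 13.6 with the share. Fkbp5, which encodes a chaperone of the glucocorticoid receptor, had its fitted peak at ZT 11.97 ± 0.965 h with the share (unadjusted p = 0.0155, adjusted p = 0.501, edgeR). Zbtb16 had its fitted peak at ZT 12.4 and Tat, the tyrosine aminotransferase, at ZT 13.6. Of 10 members, 2 had an unadjusted p under 0.05 without and 4 with the share, beside 9.53% and 7.93% of all genes. Herpud1, a component of protein degradation at the endoplasmic reticulum, was the nearest to the threshold of 12 genes of the unfolded protein response, with a peak at ZT 12.5 ± 0.540 h (adjusted p = 0.135 with the share, edgeR).

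Of 10 targets of p53, 5 had an unadjusted p under 0.05 without the share, namely Mdm2, Bax, Gdf15, Phlda3 and Eda2r, with fitted peaks from ZT 3.33 to ZT 5.34. Phlda3 was the nearest to the threshold with the share (adjusted p = 0.200, edgeR). Among 14 genes of temperature and heat shock, the cold-inducible Rbm3 had its fitted peak at ZT 11.3 and the chaperone Hspa8 at ZT 14.7, with adjusted p-values of 0.331 and 0.442. The list held 4 genes at an unadjusted p under 0.05 without and 3 with the share, and 12 were rhythmic in Mu livers. Bile acid genes had 0 of 8 in either fit, drug metabolism genes 0 and 1 of 12, and genes of fasting and gluconeogenesis 2 of 14 in each. Over all genes these shares were 9.53% without and 7.93% with the human share, and 28.9% were rhythmic in Mu livers. Il1b, which encodes the cytokine interleukin 1 beta, was the nearest to the threshold of the innate immune list. It had its fitted peak at ZT 14.9 ± 0.653 h and an amplitude of 0.87 ± 0.14 (adjusted p = 0.0695 without and 0.362 with the share, edgeR). Summed Kupffer cell, endothelial and stellate markers had fitted peaks at ZT 14.7, 14.5 and 13.8, and the human share at ZT 13.6. Their part in the Il1b values was not tested.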

How the data were processed

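RNA of livers was sequenced, and the authors deposited raw counts per gene for each liver, whole numbers with no normalization. Per the labels' protocols, RNA was isolated with an RNeasy kit and libraries with a directional kit. STAR and the builds GRCm38, mm10, GRCh38, hg38 and hg19 are named in the submitters' processing notes. The counting program, its annotation and its strand setting are not given in the sources used here. Of 19689 mouse rows, 19615 had a symbol in the reference tables, and positions are from an annotation of GRCm38. A table of other tissues was not used here.

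Groups were taken from the labels. The members and lists were chosen with earlier results of these data known. Mouse rows of the 15 Hu livers were filtered with filterByExpr, scaled by TMM and tested with edgeR 4.0.16 in R 4.3.3 for a cosine and a sine term of 24 h, without and with the human share as a linear covariate. All adjusted p-values are Benjamini-Hochberg values of edgeR tests over all genes tested, unless another tool is named. Amplitudes and peaks are from least squares on log2 CPM computed here with a prior count of 2. The rule for named genes took the clock lists, the list of other clock outputs, genes past the threshold in either fit, and members of other lists past it, and some of them are not reported here. Genes just outside the threshold and list members that did not pass it were named after their values were seen. The human share of the library with the fewest counts had a Wilson interval (95%) of 52.48% to 52.52%, and such intervals cover counting error only. The fits were tested on simulated counts of 13728 genes in the design of the Hu livers. The fit without the share recovered 38.8%, 83.6% and 95.5% of genes with an amplitude of 0.5, 1 and 2. The fit with it recovered 26.9%, 71.6% and 93.9%. These were 67, 67 and 66 genes, and 5 and 4 unchanged genes were called. The simulation held no slope on the share and more rhythmic genes than were called in the livers, so recovery there may be lower. Libraries of 1 time point differed by 45.5 to 542 times the sampling noise (chi-square per degree of freedom), so none was counted as a copy. Alternatives were DESeq2 1.42.0, limma 3.58.1 with voom, other scalings, filters, time as a factor, a replicate block, and leaving out libraries or time points.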

Additional observations from a re-analysis of the deposited data

Results flagged for a closer look

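Named genes whose 24 h rhythm differed between the mouse rows of Hu and Mu livers were picked out for a closer look. The joint edgeR fit of 27 livers gave adjusted p-values of 0.000732 for Ppard, 0.00622 for Cry1, 0.0132 for Por, 0.0180 for Per2, 0.0186 for Wee1, 0.0212 for Alas1 and 0.0217 for Nr1d2. They were 0.0228 for Lonrf3, 0.0240 for Nr1d1, 0.0243 for Usp2, 0.0445 for Npas2, 0.0449 for Bhlhe40 and 0.0498 for Tsc22d3. The amplitude in Hu livers was smaller in each of the 13, from 0.115 of that in Mu livers for Wee1 to 0.941 for Tsc22d3. Mouse rows of Mu livers include transplanted murine hepatocytes, so the arms differ in their mix of mouse cells. Fitted peaks of Lonrf3 lay at ZT 19.6 ± 1.74 h in Hu and ZT 18.97 ± 0.439 h in Mu livers, and those of Bhlhe40 at ZT 12.1 ± 0.931 h and ZT 15.9 ± 0.649 h. Ppard, Cry1, Por, Wee1, Alas1 and Nr1d2 stayed under an adjusted p of 0.05 without any 1 of the 27 livers, with values up to 0.0488 (edgeR). Npas2, Bhlhe40 and Tsc22d3 did so in 11, 8 and 7 of the 27 fits. These 3 also missed 0.05 without the filter on low counts (adjusted p = 0.0504, 0.0537 and 0.0587, edgeR). Npas2 missed it with the human share as covariate (0.0603) and Tsc22d3 with DESeq2 size factors (0.0549, edgeR). With library sizes over mouse and human rows, Usp2 was the only one of the 13 that passed. Lonrf3, Nr1d1 and Per2 were lost without Mu liver ZT 6 replicate 2, at up to 0.0623, Nr1d1 also without Mu liver ZT 18 replicate 2, and Usp2 without the Hu or the Mu liver ZT 14 replicate 2, at up to 0.0623 (edgeR).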

How the results depend on the processing

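The count of 8 rhythmic genes was 8 with DESeq2 size factors, with no scaling beyond the total of mouse rows (6 of them the same genes), without the low-count filter and with a mean of 5 CPM or more. It was 10 in limma-voom, 782 in limma-voom with sample quality weights, 238 in DESeq2's likelihood ratio test and 25 with a spread shared with Mu livers, sets that held 8, 8, 8 and 7 of the 8. It was 2 with library sizes over mouse and human rows, and 1 with ZT as a factor, a test of more terms. Without ZT 2, 6, 10 or 14 it was 2, 1, 2 or 4. Leaving out 1 library gave 4 to 18, the highest without ZT 18 replicate 2. Dbp passed in 33 of 33 alternatives, Nr1d1 in 31, Tsc22d3 and Per2 in 27, Esco2 in 16, Per3 in 15, Per1 in 13 and Cry1 in 11. The 13 genes with the share became 147 in DESeq2 and 51 in limma-voom with weights, each with all 13 kept, 7 with no scaling, 2 with library sizes over all rows and 10 with the logit of the share. Leaving out 1 library gave 2 to 9. Nr1d1 and Dbp passed in 26 of 26 alternatives. Without the 2 shallowest libraries, ZT 18 replicate 3 and ZT 22 replicate 2, an alternative chosen like limma-voom without weights after seeing the data, 4 genes were rhythmic without and 6 with the share. The count of 192 genes with a different rhythm was 1152 in DESeq2, 199 with its size factors, 11 with library sizes over all rows, 107 without the filter and 289 with the human share, and leaving out 1 library gave 38 (without Mu liver ZT 6 replicate 2) to 1009 (without Mu liver ZT 6 replicate 1). The R² of the human share was 0.351 on the logit scale and 0.386 between time points (permutation p = 0.0731 and 0.409), and 0.285 to 0.566 without 1 library. The cause of these shifts was not tested. Fitted peaks of the 8 genes moved by at most 2.95 h (Cry1) under the alternatives that fit a cosine.

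The main fits did not pair libraries by replicate number. Deviations from the time point mean had a mean correlation of 0.152 over 33 pairs of Hu livers with the same number (-0.591 to 0.697). Over 60 pairs with different numbers the mean was -0.0845 (-0.71 to 0.77). For 12 pairs of a Hu and a Mu liver of the same ZT and number the mean correlation was 0.142 (0.0128 to 0.347). Whether equal numbers mark paired libraries cannot be told from these values. With the number as a replicate block, 5 genes were rhythmic without and 2 with the share, and 138 differed between arms, while Npas2, Bhlhe40 and Tsc22d3 had an edgeR adjusted p of 0.0558, 0.0506 and 0.0554 for that difference. In simulated counts of this design without a slope on the share, 38.8%, 83.6% and 95.5% of genes with an amplitude of 0.5, 1 and 2 were recovered. Recovery in the livers may be lower, and a gene that was not called is not shown to be without rhythm.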
